A study of Mus musculus with 2 samples.

Results

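The 7 genes described here are interleukin-1 family cytokines and their regulators: Il1a, Il1b, Il1rn, Il18, Il18bp, Il1rap and Il1r2. They were taken by gene symbol from the 55536 annotated genes of the deposited tables, and all 7 symbols matched 1 gene ID each. The RNA came from the nucleoplasm of mouse bone marrow-derived macrophages, primary cells of strain C57BL/6J differentiated from marrow. The cells had received Lipid A, the part of bacterial lipopolysaccharide that TLR4 recognises, at 100 ng/ml for 30 min. There was 1 group of 2 libraries, labelled biological replicates 1 and 2, made from 1 µg and 500 ng of ribosomal RNA-depleted total RNA. Both cite the same donor entry and separate biosamples, other labels call the fraction nuclear, and nothing else says that the cultures were separate, so their spread may be technical. An unstimulated sample was not analysed here, so nothing here shows induction.

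Interleukin-1 alpha and beta are inflammatory cytokines that bind the receptor IL-1R1, which then recruits the accessory protein IL-1RAcP to signal through MyD88 and IRAK kinases. The family carries its own brakes: a receptor antagonist that occupies IL-1R1 without recruiting the accessory protein, a decoy receptor that captures IL-1, and a soluble binding protein that neutralises IL-18. Interleukin-1 beta and interleukin-18 are made as inactive precursors that caspase-1 cuts inside inflammasomes. In macrophages, Il1a and Il1b are known as early transcriptional targets of TLR4.

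The agonist genes Il1a and Il1b and the antagonist gene Il1rn lie on chromosome 2, and the sequences before their starts are shown because these genes had the highest levels of the 7. Each line is the 250 bases before an annotated start, from the RefSeq promoter table (GRCm38.p6), 5′ to 3′ on the gene's strand, with the motif matches described below in capitals. The windows are chr2:129309973-129310222 (minus strand) for Il1a, chr2:129371140-129371389 (minus strand) for Il1b, and chr2:24336610-24336859 and chr2:24345041-24345290 (plus strand) for the upstream and downstream starts of Il1rn.
Il1a: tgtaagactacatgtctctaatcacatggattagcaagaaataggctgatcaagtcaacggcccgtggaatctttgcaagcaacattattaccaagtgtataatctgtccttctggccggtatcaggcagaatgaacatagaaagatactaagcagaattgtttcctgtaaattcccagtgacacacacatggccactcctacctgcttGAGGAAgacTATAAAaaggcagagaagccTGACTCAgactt
Il1b: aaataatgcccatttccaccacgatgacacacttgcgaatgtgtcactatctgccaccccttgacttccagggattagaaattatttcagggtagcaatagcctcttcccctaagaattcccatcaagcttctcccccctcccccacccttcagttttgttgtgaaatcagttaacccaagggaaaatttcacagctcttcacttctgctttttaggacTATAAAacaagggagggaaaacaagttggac
Il1rn, upstream start: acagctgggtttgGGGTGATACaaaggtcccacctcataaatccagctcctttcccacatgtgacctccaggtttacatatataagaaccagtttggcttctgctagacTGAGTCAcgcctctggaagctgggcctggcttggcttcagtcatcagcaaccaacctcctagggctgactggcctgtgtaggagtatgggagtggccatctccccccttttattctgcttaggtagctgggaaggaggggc
Il1rn, downstream start: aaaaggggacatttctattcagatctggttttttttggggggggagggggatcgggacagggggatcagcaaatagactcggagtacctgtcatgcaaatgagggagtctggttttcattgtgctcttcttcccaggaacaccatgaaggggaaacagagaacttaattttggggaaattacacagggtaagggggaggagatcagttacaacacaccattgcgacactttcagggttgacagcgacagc

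The search used 6 motifs on both strands of the same windows, taken on to 50 bases past the RefSeq start, and a match is a description of letters only. TATAAA, the TATA box letters, began at -32 from the start in Il1a and at -31 in Il1b. They also lay on the opposite strand of the Il18 window and of a further Il1rn window that starts close to the downstream one. Of all 32851 windows, 13.6% hold these letters on either strand. The AP-1 letters TGANTCA began at -12 in Il1a and at -141 from the upstream Il1rn start, and 7.81% of all windows hold them. The ETS core GAGGAA began at -41 in Il1a, with 28.3% of all windows holding it. The kappaB-like letters GGGNNNTNC, present in 46.9% of all windows, occurred in windows of Il1rn, Il18 and Il1rap. The upstream Il1rn window held 3 such matches, of which the first is in capitals and the others cross or follow the start. The printed downstream stretch holds no match, but its window held 1 kappaB-like match that began 30 bases past the start. The window of Il18bp held the C/EBP-like letters TTGCNNAA, which 10.8% of all windows hold. The CRE core TGACG, in 20.8% of all windows, was in no window of the 7 genes, and the Il1r2 window held none of the 6 motifs. That window, chr1:40085843-40086142, lies past the start of the main Il1r2 transcript at 40084698. The bases before that start were not searched.

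TPM, a level scaled for transcript length and for the total of the library, was 1 or more in each library for all 7 genes. The same held for 42.4% of 22028 protein-coding genes. The levels ran from 546 ± 247 TPM for Il1b to 1.49 ± 0.247 TPM for Il1rap (SD, n = 2, as for each ± below), and the median of the mean TPM over the 9339 detected protein-coding genes was 8.61. Il1a and Il1b together held 90.2% of the TPM of the 7 genes in replicate 1 and 87.0% in replicate 2. Levels are for the whole culture, so fewer cells of a type and less RNA per cell cannot be told apart.

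Il1b, which encodes the interleukin-1 beta precursor, stood at 721 TPM in replicate 1 and 371 TPM in replicate 2, with 10866 and 7294 reads. It ranked 36 and 60 among protein-coding genes. The gene (ENSMUSG00000027398.13) lies on chromosome 2 from 129364570 to 129371139 on the minus strand of mm10. Replicate 1 was the higher library for it, and the lower value was still above that of each other member in either library.

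Il1a, which encodes interleukin-1 alpha, a cytokine active as its uncut precursor, stood at 193 TPM in replicate 1 and 137 TPM in replicate 2, with 5768 and 5056 reads. It ranked 217 and 214 among protein-coding genes, and averaged 165 ± 39.7 TPM. The gene (ENSMUSG00000027399.1) lies 54.6 kb from Il1b on the same strand, from 129299610 to 129309972. The ranges of the pair did not overlap, and within a library Il1b was 3.73 times Il1a in replicate 1 and 2.71 times in replicate 2.

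Il1rn, which encodes the receptor antagonist, stood at 54.1 TPM in replicate 1 and 28.7 TPM in replicate 2, with 1118 and 916 reads, and averaged 41.4 ± 18.0 TPM. The gene (ENSMUSG00000026981.15) is on the plus strand of chromosome 2 from 24336853 to 24351494, 105 Mb from Il1a. The summed TPM of the agonists Il1a and Il1b was 16.9 times that of Il1rn in replicate 1 and 17.7 times in replicate 2. These are RNA levels in the nucleoplasm and say nothing of protein.

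Il18, which encodes the interleukin-18 precursor, stood at 20.95 TPM in replicate 1 and 14.8 TPM in replicate 2, with 182 and 168 reads, and averaged 17.9 ± 4.33 TPM. Il18bp, which encodes the secreted protein that neutralises interleukin-18, stood at 21.5 TPM and 28.5 TPM, with 667 and 1036 reads, and averaged 24.99 ± 5.01 TPM. Il18bp was 1.02 times Il18 in replicate 1 and 1.92 times in replicate 2, so the pair was level in one library and apart in the other. Il18 (ENSMUSG00000039217.13) lies on chromosome 9 from 50554827 to 50581840 on the plus strand. Il18bp (ENSMUSG00000070427.4) lies on chromosome 7 from 102014885 to 102018690 on the minus strand.

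The receptor-side members were near the detection limit. Il1r2, which encodes the decoy receptor without a signalling domain, stood at 1.79 TPM in replicate 1 and 2.15 TPM in replicate 2, with 29 and 48 reads, and averaged 1.97 ± 0.255 TPM. Il1rap, which encodes the accessory protein of the IL-1 receptor, stood at 1.31 and 1.66 TPM, with 87 and 126 reads. Il1r2 (ENSMUSG00000026073.13) is on chromosome 1 from 40074079 to 40125231 and Il1rap (ENSMUSG00000022514.14) on chromosome 16 from 26581704 to 26730117, both on the plus strand. Il1r2 had fewer reads than Il1rap and a higher TPM. The main transcript of Il1r2 has 1419 bases, against 4520 for that of Il1rap.

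**Figure D1:**
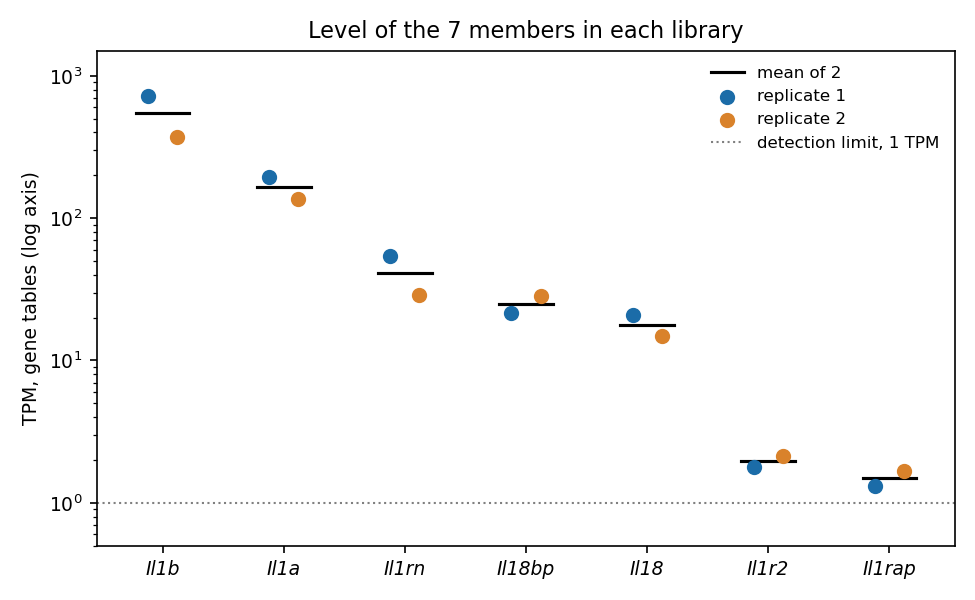
TPM of the 7 genes on a log axis, with 1 point per library, the mean of 2 as a bar and the detection limit of 1 TPM as a dotted line. Il1b and Il1a sit far above the rest, Il1rn, Il18bp and Il18 between 14.8 and 54.1 TPM, and Il1r2 and Il1rap just above the limit.

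In order of mean level the genes were Il1b, Il1a, Il1rn, Il18bp, Il18, Il1r2 and Il1rap. Neighbours from Il1rn to Il18 were close in 1 library each: Il1rn and Il18bp had 28.7 and 28.5 TPM in replicate 2, and Il18bp and Il18 had 21.5 and 20.95 TPM in replicate 1. These neighbours therefore cannot be ranked beyond the spread between the libraries. The ranges of Il1r2 and Il1rap did not overlap, but the gap between 1.79 and 1.66 TPM was smaller than the SD of either gene. It also rests on 1 read in each library, on an Il1r2 transcript of 366 bases with 0.42 and 0.30 TPM. The main Il1r2 transcript alone had 1.37 and 1.86 TPM, which overlaps Il1rap at 1.31 and 1.66 TPM. The 3 protein-coding genes with the values nearest to Il1b, by Euclidean distance in log2(TPM + 1) over the 2 libraries, were Tcirg1 at 740 and 367 TPM, Sdc4 at 728 and 405 TPM and Hnrnpa2b1 at 702 and 332 TPM. Their distances were 0.0406, 0.127 and 0.164 on that scale.

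The ratio of the libraries, replicate 1 over replicate 2, was taken from reads scaled by TMM, a normalization on the bulk of genes. It compares 2 libraries of 1 group and has no test. Of the 6 members with a mean of 50 reads or more, 0 lay beyond 2-fold, against 9.02% of all 10448 genes at that depth. Il1b was higher in replicate 1 by 0.51 on the log2 scale, with a 95% exact counting interval of 0.47 to 0.55. Il1rn and Il1a were higher in replicate 1 by 0.22 and 0.12, and Il18 differed by 0.05 with an interval of -0.26 to 0.36 that spans 0.

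Il18bp and Il1rap, a soluble inhibitor and a receptor subunit, went the other way. Il18bp had a log2 ratio of -0.70 with an interval of -0.84 to -0.56, and Il1rap one of -0.60 with an interval of -1.01 to -0.19. Il1r2, at a mean of 38.5 reads, had a log2 ratio of -0.79 with an interval of -1.51 to -0.10. Of all genes with a mean of 50 reads or more, 82.3% had a lower ratio than Il1b and 11.8% a lower ratio than Il18bp. The middle 50% of those genes lay between -0.37 and 0.39, so the ratios of Il1a, Il1rn and Il18 were inside that span and those of Il1b, Il18bp and Il1rap outside it.

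**Figure D2:**
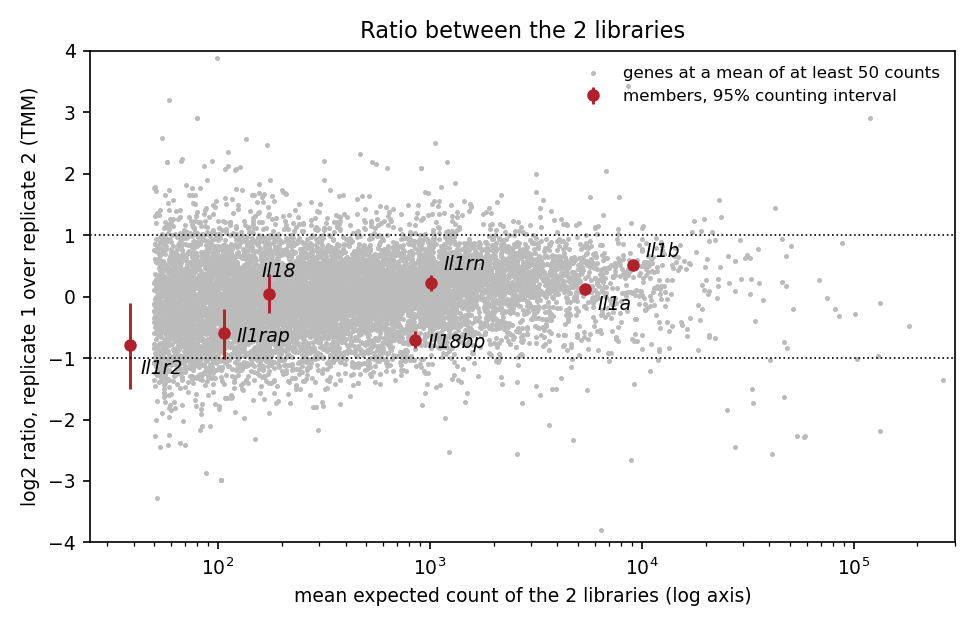
Log2 ratio of replicate 1 over replicate 2 after TMM scaling against the mean expected count on a log axis, for all genes with a mean of 50 counts or more in grey and the 7 members in red with 95% counting intervals. None of the member points lies beyond the dotted lines at 2-fold, and 9 genes lie outside the plotted range.

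The raw TPM gave larger ratios than scaled reads for the cytokine genes, 1.94-fold for Il1b and 1.88-fold for Il1rn. The median log2 ratio over the same genes was 0.44 by TPM and 0.03 after TMM. Under every scaling tried, library size, DESeq2 size factors and TPM included, Il1a, Il1b and Il1rn stayed higher in replicate 1 and Il18bp, Il1rap and Il1r2 stayed higher in replicate 2. Il18 took the opposite sign in the second transcript tables, at -0.02.

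The 7 genes have 29 annotated transcripts, of which 18 held reads in both libraries. Shares below are percent of a gene's TPM in the first transcript table unless reads are named, which weights short transcripts above their share of reads. Il1a has 1 annotated transcript of 1974 bases, which held all of its reads.

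Il1b had 63.9% of its TPM in replicate 1 and 69.2% in replicate 2 in Il1b-201, the coding transcript with 269 codons. A transcript that keeps an intron, Il1b-203, held 34.4% and 29.7%. It took 1952 and 1114 reads, which is 18.0% of the gene's reads in replicate 1, with a 95% Wilson interval of 17.3 to 18.7, and 15.3% in replicate 2, with one of 14.5 to 16.1. The kept stretch is intron 2, 532 bases at chromosome 2 from 129369752 to 129370283. The sequence at its ends, from the GENCODE M21 transcript on GRCm38, shows what Il1b-203 contains and Il1b-201 lacks, with intron bases in capitals and exon bases in lower case. The windows are chr2:129370259-129370308 and chr2:129369729-129369776, minus strand.
Il1b intron 2, start: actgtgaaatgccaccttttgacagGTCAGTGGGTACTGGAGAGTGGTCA
Il1b intron 2, end: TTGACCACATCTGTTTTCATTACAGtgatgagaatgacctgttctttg
Intron 2 opens with GT and closes with AG, and it follows the exon that holds the start codon. Over 6087 detected genes with a transcript of this class, the median share of TPM was 25.5%, with a middle 50% of 12.7% to 40.2%. Il1b averaged 32.1%, above 62.4% of those genes and inside that middle span. The tables do not separate a retained intron from RNA not yet spliced, and only intron 2 of the 6 introns of Il1b is annotated as kept.

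The 2 kinds of table disagreed on Il1b-202, a short processed transcript from the 3′ part of the gene. It had 32 and 15 reads in the first transcript tables and 1193 and 906 estimated reads in the second, where it took 31.1% and 24.7% of TPM. Il1b-203 held 27.4% and 24.9% there.

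Il1rn has a pair of first exons, 8.46 kb apart, and transcripts from each held reads. Reads were assigned to whole transcripts and not counted on the first exons, so the use of each exon was not tested. Il1rn-204 also runs on to 24351494, past the end of Il1rn-201 at 24350936, and its reads can lie there. Transcripts from the downstream exon, which include Il1rn-201 with 178 codons, the form known as secreted, took 68.7% of reads in replicate 1 and 65.3% in replicate 2. The 95% Wilson intervals of these shares were 65.9 to 71.3 and 62.1 to 68.3. Transcripts from the upstream exon, which include Il1rn-204 with 159 codons, the form known to stay inside cells, took 31.3% and 34.7%. The intervals of the libraries overlap. In the second transcript tables the upstream share of reads was 20.4% and 27.5%. Il1rn-201 itself took 591 and 528 reads and Il1rn-204 took 343 and 314.

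A further Il1rn RNA carries no coding sequence. Il1rn-206, a processed transcript of 636 bases, starts with the downstream exon and ends within the next intron. It held 175 reads in replicate 1 and 70 in replicate 2, which is 15.7% (95% Wilson interval 13.6 to 17.9) and 7.67% (6.09 to 9.54) of the gene's reads. The intervals do not overlap, but they cover counting error only. By TPM it took 46.5% and 27.2%, more than Il1rn-201 at 36.3% in replicate 1 and less than Il1rn-201 at 49.5% in replicate 2. In the second transcript tables Il1rn-206 led in both libraries, with 61.9% and 41.7% of TPM, against 22.3% and 37.6% for Il1rn-201. Its share of reads there was 30.7% and 16.2%. Il1rn-203, the retained-intron transcript, held 7 and 4 reads.

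**Figure D3:**
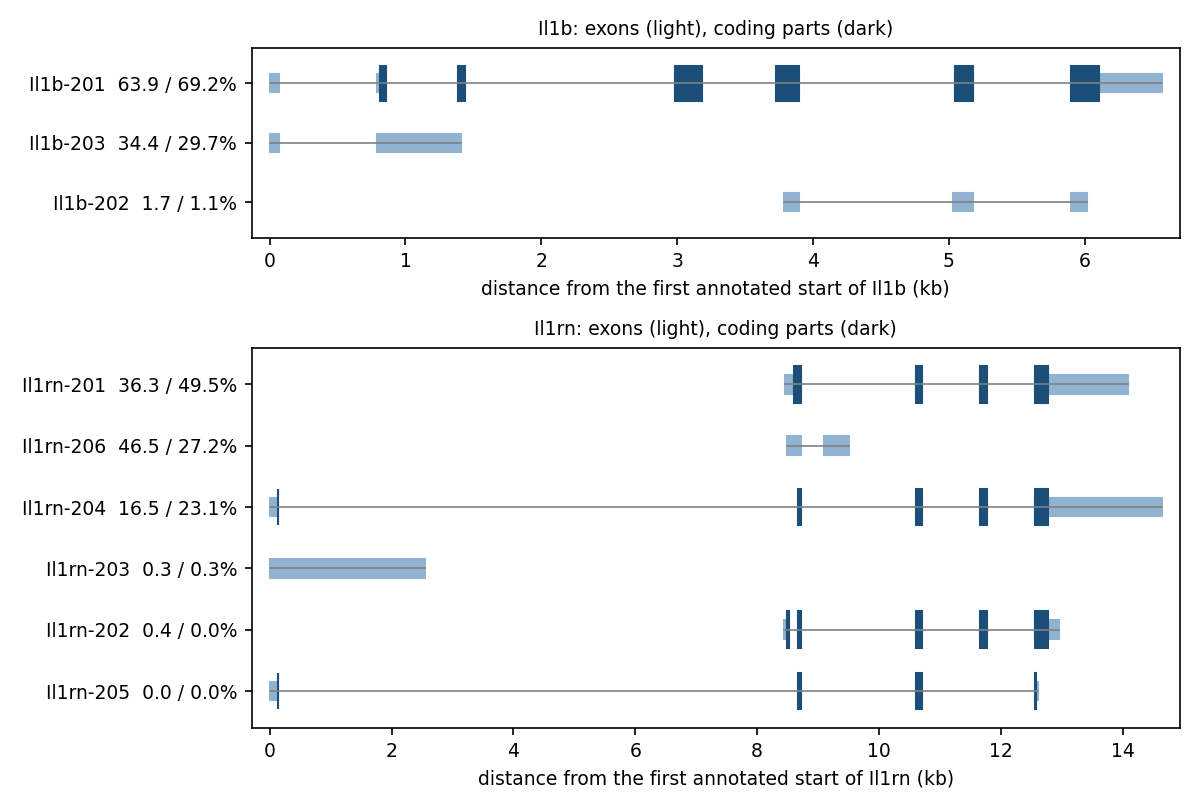
Exons of the annotated transcripts of Il1b and Il1rn against distance in kb from the first annotated start of each gene, with coding parts in dark blue and each transcript's percent of gene TPM in replicate 1 and replicate 2 beside its name. The kept intron of Il1b-203 lies near the start of Il1b, and the first exons of Il1rn lie 8.46 kb apart.

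Il18 had 80.1% of its TPM in replicate 1 and 73.4% in replicate 2 in the transcript ENSMUST00000180021.1 and 0% in ENSMUST00000059081.12. Both are annotated from the start codon onward, with 702 bases, and they differ at 7 bases, all within a coding exon of 12 bases. That exon is at chr9:50576694-50576705 for the first and chr9:50577537-50577548 for the second, on the plus strand of GRCm38. It is shown in capitals with 15 flanking bases on each side, since these letters are what separates the transcripts.
Il18, ENSMUST00000180021.1: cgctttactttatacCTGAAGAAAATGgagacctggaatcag
Il18, ENSMUST00000059081.12: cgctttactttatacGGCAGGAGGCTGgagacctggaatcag
The second transcript tables divided the reads differently, with 40.3 and 42.2 estimated reads on the first and 74.8 and 81.4 on the second. Which of the pair leads therefore depends on the table.

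Il18bp reads fell mainly on Il18bp-202 and Il18bp-203, with 194 and 193 codons. Il18bp-203 led by TPM, with 55.0% and 62.3%, against 45.1% and 36.5% for Il18bp-202. By reads Il18bp-202 led in replicate 1, with 58.7% (95% Wilson interval 55.0 to 62.4) against 41.3% for Il18bp-203. In replicate 2 the pair was about level, at 50.1% (47.1 to 53.1) for Il18bp-202 and 49.7% for Il18bp-203. In the second tables Il18bp-202 had 46.3% and 43.6% of TPM and Il18bp-203 had 43.7% and 54.4%. Il1rap had 75.1% and 65.5% of its TPM in Il1rap-201, which encodes 570 codons, and 18.9% and 30.9% in Il1rap-206, which encodes 360. A short, soluble form of the accessory protein is known besides the membrane form. Il1rap-206 rests on 8.83 and 22.5 expected reads, with 95% Wilson intervals of 5.54% to 18.5% and 11.8% to 25.02% of the gene's reads, which overlap. The Il1r2 transcript of 410 codons took 28 and 47 of the 29 and 48 reads of Il1r2, and 76.8% and 86.3% of its TPM. In the second tables it held 44.9% and 43.4% of TPM, against 44.6% and 49.6% for ENSMUST00000194913.1, an annotated transcript of 366 bases, so the leading Il1r2 transcript depends on the table.

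**Figure D4:**
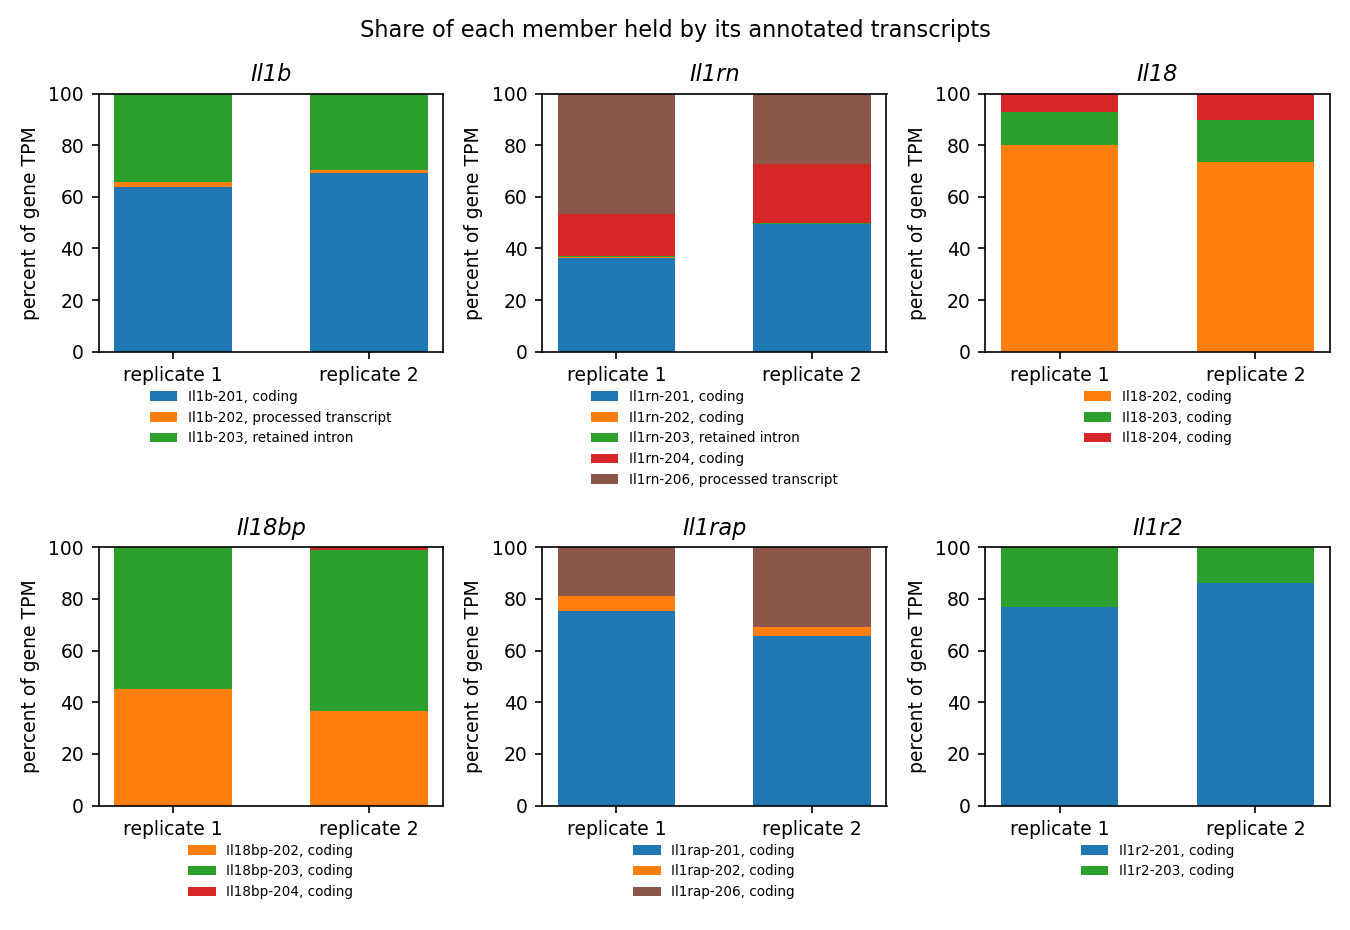
Stacked bars from 0 to 100 percent of gene TPM for the 6 members with more than 1 annotated transcript, replicate 1 left and replicate 2 right, coloured by transcript. Il1rn-206 takes 46.5% in replicate 1 and 27.2% in replicate 2. In these first transcript tables the leading transcripts of Il1b, Il18, Il18bp, Il1rap and Il1r2 are the same in both libraries.

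Some neighbours overlap the members. The handling of strand in counting, not given in the sources used here, decides whether reads from opposite strands are mixed in these values. Gm14023, a non-coding RNA gene opposite Il1a, had 80.9 and 54.7 TPM, with 2148 and 1799 reads, and shares 222 of the 1974 exon bases of Il1a. Its ratio between the libraries was 0.19 on the log2 scale, against 0.12 for Il1a. Il1bos, the antisense gene at Il1b, had 100 and 75 reads, and its 25 shared exon bases lie within the kept intron 2. Numa1, opposite Il18bp, had 52.6 and 31.8 TPM and shares 80 exon bases with it, against 3026 in all for Il18bp.

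The other neighbours had few reads. Gm20319, opposite Il1rap, shares 552 exon bases with it and had 1 and 8.37 reads. Bco2 and Tex12 opposite Il18, and Gm16894 and Gm37347 within the span of Il1r2, share no exon bases with them. They had 38 and 33, 20 and 5, 9 and 8, and 29 and 82 reads. Gm37347 is on the same strand as Il1r2, and its reads were not fewer than the 29 and 48 of Il1r2.

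Of 10 ligand and antagonist genes of the family, 4 were detected, against 42.4% of all protein-coding genes. The 4 are Il1a, Il1b, Il1rn and Il18. Il33, an alarmin, had 0 reads in both libraries, as had Il36a, Il36b, Il36rn and Il1f10. A count of 0 allows up to 3 reads, which is 1.89e-05% of replicate 1 and 2.02e-05% of replicate 2. The remaining ligand, Il36g, had 2 and 13 reads.

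Among 11 receptors and decoys, 3 were detected in the gene tables, all of them members, against 42.4% of all protein-coding genes. Il1r1, the signalling receptor for IL-1, had 12 and 13 reads, or 0.15 and 0.13 TPM. Il1r2, the decoy, was therefore above Il1r1 by TPM, although both rest on few reads. Il1r2, Il1r1, Il1rl2, Il1rl1, Il18r1 and Il18rap follow each other on chromosome 1 within 478 kb. In the gene tables Il1r2 had the highest mean TPM of the 6. In replicate 1 alone Il1rl2, the receptor for IL-36 ligands, was above it at 1.95 TPM, and in replicate 2 it had 0.76 TPM. Il18r1, the receptor chain that binds interleukin-18, had 0 reads in both libraries, and Il18rap, its partner chain, had 36 and 58. The second transcript tables differed here, with Il18r1 at 3.68 and 1.80 TPM and Il18rap at 2.98 and 2.27 TPM. Both were above Il1r2 at 1.98 TPM in replicate 1 and below its 3.59 TPM in replicate 2. Il1rap had 0.642 and 0.848 TPM there, and 4 of the 11 genes were detected.

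All 9 signalling genes and all 11 genes of precursor maturation and release were detected, against 42.4% of all protein-coding genes. Irak2, a kinase of the IL-1 and TLR pathway, was highest of the signalling genes at 103 and 32.1 TPM, followed by Irak1 at 35.4 and 27.7 TPM and Tab2 at 32.3 and 27.3 TPM. Myd88, the shared adaptor, had 29.7 and 17.8 TPM, Tollip 23.2 and 15.5 TPM, Map3k7 25.6 and 12.2 TPM and Irak3 14.7 and 6.82 TPM. Nlrp3, an inflammasome sensor, stood at 548 and 144 TPM, below Il1b in each library.

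Casp1, whose product cuts the interleukin-1 beta and interleukin-18 precursors, had 25.8 and 19.1 TPM, above Il18 and below Il1b in each library. Casp4, which senses cytosolic lipopolysaccharide, had 178 and 71.0 TPM, and Gsdmd, the pore-forming gasdermin, 58.5 and 39.1 TPM. Nlrp1b had 79.5 and 42.6 TPM, Aim2 67.5 and 38.3 TPM, Casp8 30.4 and 26.9 TPM, Mefv 15.95 and 5.61 TPM and Nek7 15.6 and 10.2 TPM. Pycard, the inflammasome adaptor ASC, had 3.38 and 4.91 TPM.

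Of these 20 genes, 4 lay beyond 2-fold between the libraries, all higher in replicate 1. The 9.02% of all genes given above counts both directions, with 397 of 10448 genes higher in replicate 1 and 545 in replicate 2. The 4 genes are Nlrp3, Irak2, Nlrc4 and Mefv, with log2 ratios of 1.57, 1.39, 1.20 and 1.15.

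**Figure D5:**
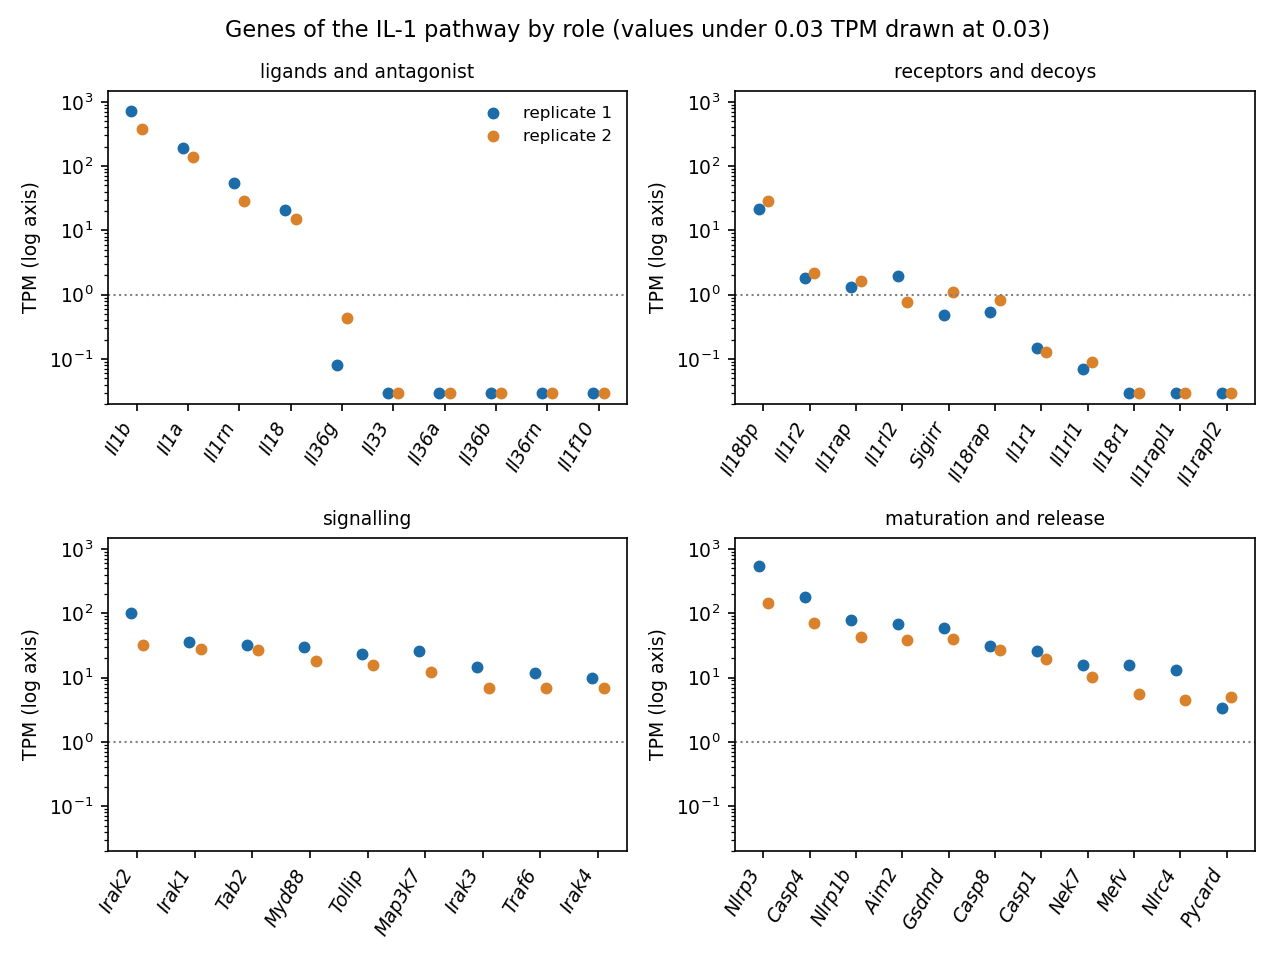
TPM on a log axis of 41 genes of the pathway by role, replicate 1 left of replicate 2, with values under 0.03 TPM drawn at 0.03 and the detection limit dotted. Of the ligands and receptors other than the members, none reaches 1 TPM in both libraries of the gene tables. All genes of the other panels lie above 1 TPM in both libraries.

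The macrophage label was checked with 7 marker genes, all detected at 24.8 to 1880 TPM on average. Of 24 markers of other blood and stromal cell types, 2 were detected in the gene tables, against 42.4% of all protein-coding genes. Both are neutrophil genes, Mmp8 at 1.78 and 2.74 TPM and S100a9 at 1.24 and 1.09 TPM. In the gene tables the summed level of the 6 neutrophil markers was 3.89 TPM in replicate 1 and 7.54 TPM in replicate 2, with Ly6g and Retnlg at 0 reads. The second transcript tables gave Mmp8 0.778 and 1.35 TPM and S100a9 0.465 and 0.483 TPM, so neither was detected in both libraries there. The T cell marker Cd3d, with 0 reads in the gene tables, had 4.02 and 3.37 TPM there. The cause of this difference was not tested. Il1r2 is also known from neutrophils and had its higher value in replicate 2. The part of neutrophil RNA in the Il1r2 level was not tested.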

How the data were processed

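The deposited gene tables and first transcript tables give expected counts and TPM, derived from a read alignment, and the build is mm10 and the annotation GENCODE M21, as the deposited descriptions state. For each transcript the deposited first tables add its percent of the TPM of its gene. The second deposited tables give estimated counts and TPM made from the read files. Tool names, not given in the sources used here, stay unnamed. The deposited credibility bounds were not used as errors, since the TPM of Il1a and Il1b lay above them in both libraries.

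Expected counts were rounded to whole numbers for ratios. Annotated genes held 15846212 reads in replicate 1 and 14874879 in replicate 2; rows without a gene name, 1.19% and 0.213%, were left out. The second tables held 21932480 and 25815351. Ratios used TMM in edgeR 4.0.16 (R 4.3.3), tested on simulated data, and DESeq2 1.42.0 size factors as an alternative. Intervals are at 95% and, like floors of 3 counts, cover counting error only, since reads can be copies of 1 molecule. No conditions were compared, since there is 1 group.

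The members, pathway lists and motifs were chosen with earlier results of these data known. Named were all members, overlapping genes, pathway genes with a mean of 10 TPM or more and the 3 genes nearest Il1b. Il33, Il1r1, Il36g, Il18r1, Il18rap, Il1rl2, Il1rapl1, Il1rapl2, Nlrc4, Pycard, Cd3d, the undetected ligands and the neutrophil markers were named after their values were seen. Symbols Il36a, Il36b, Il36g and Il36rn were matched through RefSeq synonyms (GRCm38.p6). The span from Il1rn to Il1a was not described as a cluster, because the genes lie far apart.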

Additional observations from a re-analysis of the deposited data

Results flagged for a closer look

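Reads appeared in the second transcript tables, outside the main gene tables, for 3 receptor genes with 0 reads in both gene tables. Il18r1 had 572 and 365 estimated reads in replicates 1 and 2, of which 517 and 303 lay on 1 coding transcript. Il1rapl2 had 161 and 160 estimated reads, all on 1 retained-intron transcript. Il1rapl1 had 11.1 and 16.0. Each is above the 3 reads that a count of 0 allows, and there were no control samples to set them against. The cause of the gap between the tables was not tested.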

How the results depend on the processing

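No paired analysis was possible because there is 1 group. In the second transcript tables mean TPM was 85.6 for Il1a, 9.24 for Il18, 11.4 for Il18bp, 0.745 for Il1rap and 2.79 for Il1r2, and Il1b and Il1rn moved by less than 1 SD. Rescaled over protein-coding genes alone, mean TPM was 578 for Il1a, 1895 for Il1b, 144 for Il1rn, 62.7 for Il18, 89.2 for Il18bp, 5.29 for Il1rap and 7.01 for Il1r2. The 7 detected members became 6 in the second tables and 5 at a TPM of at least 5. The 3 detected receptors and decoys became 5 at a TPM of at least 0.5, 6 at 10 or more reads and 4 in the second tables. The 4 detected ligand and antagonist genes became 5 in the second tables. Genes beyond 2-fold between the libraries numbered 942, with 397 higher in replicate 1 and 545 in replicate 2. There were 2083 at a mean of at least 10 reads, 7561 with no filter, 1670 by TPM with pseudocount 0.1 and 1524 in the second tables. DESeq2 size factors, equal in both libraries, gave 490 and 430, and TPM gave 1032 and 101 with pseudocount 1 and 1498 and 172 with 0.1. The number of members beyond 2-fold was 0, and 1 in the second tables, Il1r2 at -1.26. Of 42 alternative ratios of single members, 28 stayed within the counting interval, and the sign changed for Il18 in the second tables. Of 44 alternative transcript shares, 19 moved by over 1 SD. Leaving out 1 of 2 libraries cannot move a mean by 1 SD, so those settings could not count as moved. Of the other settings, only Il18bp-202, Il1rap-201 and Il1rap-206 stayed within 1 SD, each for its share of TPM in the second tables. The causes were not tested. Depth limits Il1r2 and Il1rap most.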

Other observations

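Il36g, an IL-36 ligand of the family, had 2 and 13 reads in the gene tables and 162 and 160 in the second tables. Il18rap had 36 and 58 reads and 301 and 335 in the second tables. Estimated reads in the second tables were 1.38 and 1.74 times those of the gene tables over all genes, and for Il1r2 2.07 and 3.42 times. For Il1a and Il1b they were 1.41 and 1.64 times and 1.44 and 1.80 times.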
